A study of Homo sapiens with 4 samples.

Results

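The clustered histone genes are the genes whose names on the array begin with HIST1H to HIST4H. They numbered 69 of the 43305 gene names, and comprised 6 linker histone H1 genes, 17 H2A, 19 H2B, 13 H3 and 14 H4 genes. By cluster, 56 belonged to HIST1 on chromosome 6, 9 to HIST2 and 3 to HIST3 on chromosome 1, and 1 to HIST4 on chromosome 12. All of them were kept, and where a gene had several probes, the one with the highest mean signal stood for it. Expression was measured in the human head and neck squamous cell carcinoma (HNSCC) lines HN4 and HN30, both untreated, and in their cisplatin-resistant derivatives HN4/DDP and HN30/DDP (labelled HN4_CR and HN30_CR). The derivatives were selected with rising cisplatin and kept in medium with 20 μM of the drug, for which the labels give 48 h. Each of the 4 conditions was 1 one-colour Agilent array, so that resistance, the drug in the medium and the single culture cannot be told apart. Neither resistant line could be tested against its parent alone.

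Chromatin is built from nucleosomes, in which DNA is wound around an octamer of the core histones H2A, H2B, H3 and H4, while H1 binds the linker between them. The clustered genes supply these proteins during DNA replication. Their transcription rises on entry into S phase, driven by cyclin E-CDK2 through the coactivator NPAT, and the messages are degraded when replication stops. Most of the messages have no introns and no poly(A) tail but end in a stem-loop bound by SLBP, although several of the genes also give longer polyadenylated forms. In bulk RNA, fewer cells in S phase and less histone RNA per cell cannot be told apart. The labelling kit primes from poly(A) tails, and how much of each histone message was labelled was not measured here.

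The histone genes are so alike that a probe may also bind the message of another member. Among the 85 probes of the 69 genes, 28 pairs shared at least 85% of their bases over an overlap of at least 30 bases, and 1 of these pairs lay within 1 gene. Of the probes chosen, 26 were like that of another gene, and 5 are annotated to more than 1 gene (HIST1H4K, HIST2H2AA4, HIST2H3A, HIST2H3D and HIST2H4B). The pairs below are shown because they carry some of the largest differences (H3) and the longest overlap between chosen probes of different genes (H2A). Each probe is written 5′ to 3′ at its hg19 position, with the bases that differ from its partner in capitals.
HIST1H3F (chr6:26250588-26250647, minus strand): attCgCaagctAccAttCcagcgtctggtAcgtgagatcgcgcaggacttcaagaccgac
HIST1H3H (chr6:27778041-27778100, plus strand): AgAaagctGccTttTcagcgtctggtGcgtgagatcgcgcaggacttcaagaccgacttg
HIST1H2AD (chr6:26199083-26199142, minus strand): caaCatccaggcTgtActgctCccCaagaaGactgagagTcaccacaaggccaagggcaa
HIST1H2AK (chr6:27805729-27805788, minus strand): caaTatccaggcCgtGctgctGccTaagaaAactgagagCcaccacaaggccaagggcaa
The H3 probes differed at 6 of 57 shared positions and the H2A probes at 7 of 60. In the open reading frame, none of the 19 codons compared in either pair changed its amino acid (0 differences), so the probes can be told apart only through synonymous bases.

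The stem-loop itself lies in a few of the probes. The letters CTCTTTT and AGAG with any 1 letter between them, searched on the written strand, were found in 5 of the 85 member probes (5.88%) and in 9 of all 58201 probes (0.0155%). They are shown in capitals in the second probe of HIST1H3H and in the probe of HIST1H2BF, where the loop letter differs.
HIST1H3H: aaaggCTCTTTTCAGAGccacc
HIST1H2BF: aaaggCTCTTTTAAGAGcca
The other probes with these letters were those of HIST1H2AI, HIST1H2BE and HIST2H3A. The 5 probes were lower in both resistant lines, with differences from -1.58 to -1.08 in HN4/DDP and from -3.97 to -3.35 in HN30/DDP.

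All values are log2 of the processed signal minus the array's 75th percentile, which stood at 444 to 496 on the linear scale, and a difference is resistant minus parental on this log2 scale. Between 55.3% and 63.6% of the spots were well above background, and none was saturated. Of the members, 62 were well above background on all 4 arrays, 2 on none (HIST1H1T and HIST1H2BA, both known from testis) and 5 on some. Of 10 markers of squamous epithelium, 9 were well above background on all arrays. KRT6A, a keratin, was not well above background on the HN30/DDP array, at least 183-fold lower than in HN30, but was higher by 3.32 in HN4/DDP. KRT5, another keratin, differed by -4.05 and -1.93, while KRT14 and KRT17 were higher by 2.33 and 3.29 in HN4/DDP. The summed linear signal of the 10 markers, in units of the 75th percentile, was 404 and 366 in HN4 and HN4/DDP and 358 and 258 in HN30 and HN30/DDP. SFN, EPCAM and PERP, at 5.95 to 7.13 on all arrays, made up most of each sum, and the keratins and TP63 little of it. Of 9 markers of leukocytes, endothelium and fibroblasts, 4 were well above background on all arrays, with signals from -3.73 to -0.13. COL1A2 and DCN were among those dim throughout. Of their 9 differences, 6 lay below 0 in HN4/DDP and 3 in HN30/DDP. COL1A1, a collagen, was higher by 1.73 and 2.43, and CDH5 of endothelium differed by -0.62 and -0.59. The summed signal of the 9 was 0.773 in HN4 and 1.29 in HN4/DDP, against 0.521 in HN30 and 1.1 in HN30/DDP. The part of either list in the histone differences was not tested.

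The clustered histone genes were lower as a group in both cisplatin-resistant lines, and more so in HN30/DDP. The median difference of the 69 genes was -1.13 in HN4/DDP (2.19-fold lower) and -2.64 in HN30/DDP (6.24-fold lower), beside -0.21 and -0.07 for all genes. In HN4/DDP, 67 of the 69 values lay below 0, as did 26996 of all 43305 genes, and in HN30/DDP 66, as did 22995 of all genes. The 62 members bright on all arrays had medians of -1.15 and -2.76, and their differences reached from -1.63 to 0.24 in HN4/DDP and from -4.22 to -0.03 in HN30/DDP. The scanner's own error of a difference was 0.20 to 0.25 (1 SD) for these members, which covers the spot and not the culture. For 64 of the 69 genes the difference was lower in HN30/DDP than in HN4/DDP, as it was for 21695 of all genes. The HN30/DDP difference minus the HN4/DDP difference had a median of -1.67, which was not tested.

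**Figure D1:**
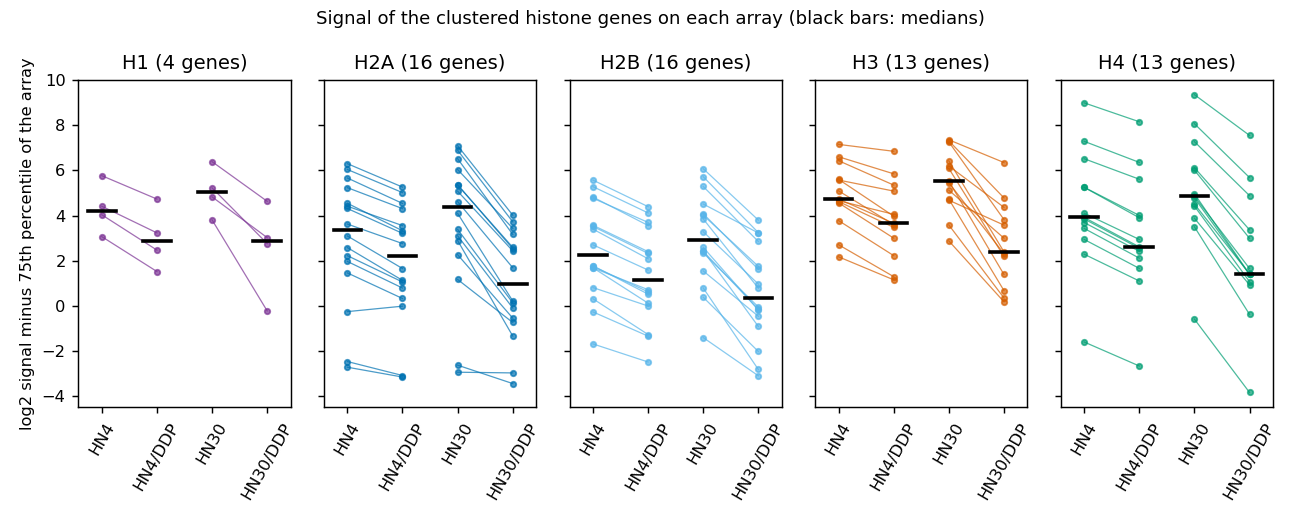
Normalized log2 signal (y axis) of the members well above background on all arrays, on each of the 4 arrays (x axis) and by histone type; a line joins a gene's parental and resistant array, and black bars are medians. All lines but that of HIST2H2AA4 run down from HN4 to HN4/DDP, and all run down from HN30 to HN30/DDP.

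A gene was counted as lower when its difference passed -2 and its parental array was well above background. By this rule 1 of 65 members was lower in HN4/DDP, where 2.38% of all genes were, and 52 of 65 were lower in HN30/DDP, where 3.25% of all genes were. With a threshold of 1 the counts were 48 of 65 in HN4/DDP against 9.36% of all genes, and 62 of 65 in HN30/DDP against 15.7%. Both differences passed -1 for 47 of the 64 members bright on both parental arrays, against 2.23% of all genes. Only HIST1H1A passed 2 in both lines, where 0.153% of all genes did. In the other direction, 1 of 63 members was higher by over 2 in HN4/DDP against 3.8% of all genes, and 0 of 65 in HN30/DDP against 8.58%. The 1 higher member was HIST2H2BA, a pseudogene whose probe has no genome position in the files and was above background on the HN4/DDP array alone. Its difference of 2.57 there was 0.33 with normexp, a model-based background correction of the raw signal, and 0.28 with dim signals raised to the lowest bright signal.

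The 6 genes of the linker histone H1 had median differences of -1.36 in HN4/DDP and -2.13 in HN30/DDP. HIST1H1B, which encodes H1.5, stood at 3.07 in HN4 and 1.52 in HN4/DDP, and at 3.81 in HN30 and -0.22 in HN30/DDP. It was thus 2.91-fold lower in HN4/DDP and 16.3-fold lower in HN30/DDP. HIST1H1D, which encodes H1.3, stood at 4.03 in HN4 and 2.47 in HN4/DDP, against 4.83 in HN30 and 3.02 in HN30/DDP. It was 2.95-fold lower in HN4/DDP and 3.49-fold lower in HN30/DDP, so that HN30/DDP stayed above HN4/DDP. HIST1H1A, which encodes H1.1, had -1.03 in HN4 and -5.57 in HN4/DDP, where it was not well above background, so that it was at least 15.6-fold lower. In HN30 it went from -1.10 to -3.60, a 5.64-fold lower signal with HN30/DDP still well above background. With normexp its differences were smaller, at -2.08 in place of -4.55 in HN4/DDP and -1.51 in place of -2.50 in HN30/DDP. The other bright H1 genes, HIST1H1C (H1.2) and HIST1H1E (H1.4), had differences of -1.03 and -1.18 in HN4/DDP and of -1.75 and -2.46 in HN30/DDP.

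The 17 H2A genes had median differences of -1.10 and -2.83, and 13 passed -2 in HN30/DDP, against 3.25% of all genes. HIST1H2AL had the largest difference of all bright members in HN30/DDP. It stood at 1.97 in HN4 and 0.79 in HN4/DDP, against 2.89 in HN30 and -1.33 in HN30/DDP. It was 2.26-fold lower in HN4/DDP and 18.7-fold lower in HN30/DDP, so that the HN30/DDP array was the lowest of the 4 and its parent the highest. HIST2H2AA4 was the only bright member that was not lower in HN4/DDP. Its signal was -0.25 in HN4 and -0.01 in HN4/DDP, against 1.17 in HN30 and -0.73 in HN30/DDP, which gave differences of 0.24 and -1.90. Its probe is annotated to both copies of a duplicated H2A gene of HIST2. HIST2H2AB and HIST2H2AC had differences of -1.10 and -1.22 in HN4/DDP and of -2.64 and -2.75 in HN30/DDP. HIST3H2A stood at -2.71 in HN4 and -3.14 in HN4/DDP, against -2.93 in HN30 and -2.96 in HN30/DDP. Its differences were -0.43 and -0.03, the latter within the scanner error.

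The 19 H2B genes had median differences of -1.13 and -2.39. HIST1H2BE stood at 0.32 in HN4 and -1.26 in HN4/DDP, against 0.80 in HN30 and -2.81 in HN30/DDP, and was 2.99-fold lower in HN4/DDP and 12.2-fold lower in HN30/DDP. HIST1H2BF stood at 1.69, 0.12, 2.44 and -0.91 on the same arrays, and was 2.96-fold and 10.2-fold lower. The probes of both hold the stem-loop letters. With normexp the HN30/DDP difference of HIST1H2BE was -2.79 in place of -3.60. HIST2H2BE went from -1.68 to -2.48 in HN4/DDP and from -1.40 to -3.09 in HN30/DDP (a difference of -1.69, or -1.09 with normexp), and HIST3H2BB, beside HIST3H2A, had differences of -1.07 and -2.40. HIST2H2BF was dim on both HN4 arrays and had -3.49 in HN30 and -3.58 in HN30/DDP.

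The 13 H3 genes, all bright on every array, had median differences of -1.08 and -3.13. In HN30/DDP 10 passed -2, against 3.25% of all genes. HIST1H3D, HIST1H3F and HIST1H3H were among the 6 bright members with the largest differences in each line. HIST1H3D stood at 5.60 in HN4 and 3.97 in HN4/DDP, against 6.42 in HN30 and 2.40 in HN30/DDP, and was 3.10-fold lower in HN4/DDP and 16.2-fold lower in HN30/DDP. HIST1H3F stood at 4.56, 3.0, 5.52 and 1.39 on these arrays and was 2.95-fold and 17.4-fold lower. HIST1H3H stood at 3.78, 2.23, 4.73 and 0.68 and was 2.93-fold and 16.5-fold lower. As shown above, its probe shares most bases with that of HIST1H3F. HIST1H3B, with 5.09 in HN4 and 3.60 in HN4/DDP, against 6.08 in HN30 and 2.19 in HN30/DDP, was 14.9-fold lower in HN30/DDP. The H3 genes of HIST2, HIST2H3A and HIST2H3D, had differences of -1.08 and -0.75 in HN4/DDP and of -3.43 and -2.52 in HN30/DDP. HIST3H3, the testis form, went from 7.14 to 6.84 and from 7.35 to 6.34, the smallest differences among the H3 genes in both lines. Its probe is like that of HIST2H3D, with 34 of 40 bases shared.

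The H4 genes encode the same protein, apart from HIST1H4G, whose product is divergent. The median differences of the 14 were -1.21 and -3.05, and 12 passed -2 in HN30/DDP, against 3.25% of all genes. HIST2H4B went from 3.85 to 2.55 in HN4/DDP and from 4.96 to 1.40 in HN30/DDP, and was 2.46-fold and 11.8-fold lower. HIST4H4, the lone gene on chromosome 12, went from -1.59 to -2.65 and from -0.58 to -3.82, and was 2.09-fold and 9.47-fold lower. With normexp its difference in HN30/DDP was -2.0 in place of -3.24. The 13 bright H4 genes ranged from -1.34 to -0.84 in HN4/DDP and from -3.87 to -1.80 in HN30/DDP. The smallest of these differences in both lines was that of HIST1H4C, singled out after its values were seen, at 8.98 in HN4 and 8.15 in HN4/DDP, against 9.34 in HN30 and 7.54 in HN30/DDP.

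**Figure D2:**
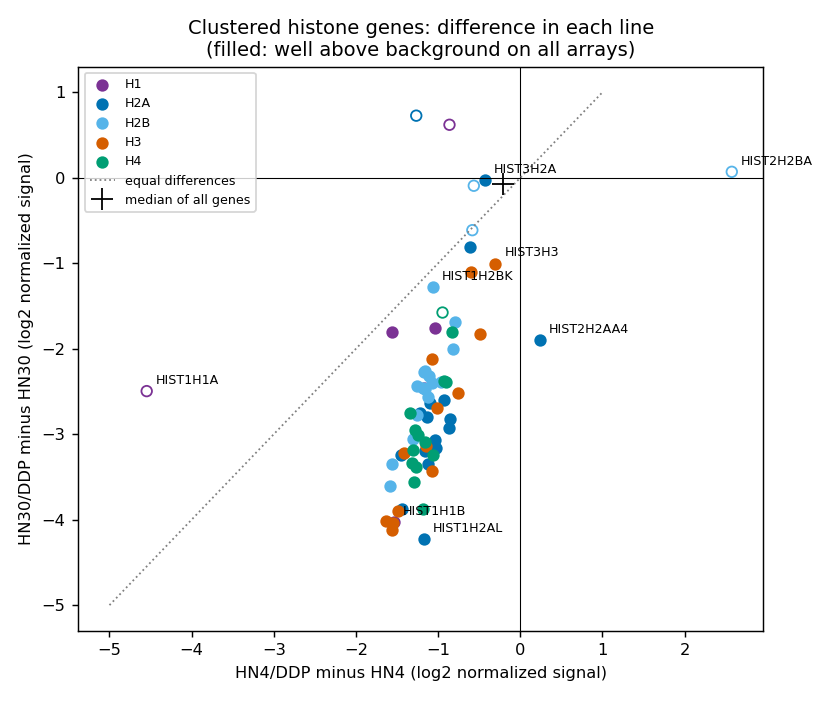
Log2 difference of each of the 69 genes in HN4/DDP (x axis) and HN30/DDP (y axis), coloured by histone type; filled points were well above background on all arrays, the dotted line marks equal differences and the cross the medians of all genes (-0.21 and -0.07). Of the points, 64 lie below the dotted line and 5 above it (HIST1H1A, HIST1H1T, HIST1H2APS1, HIST2H2BF and HIST3H2A), of which only HIST3H2A was bright on all arrays.

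The differences were spread over all clusters. Median differences in HN4/DDP and HN30/DDP were -1.16 and -2.76 for the 56 genes of HIST1, -0.80 and -2.52 for the 9 of HIST2, and -0.43 and -1.0 for the 3 of HIST3. Along chromosome 6, gaps of over 250 kb between neighbouring probes split HIST1 into 4 groups. The group nearest the end of the short arm (chr6:25726563-25733054, hg19) held HIST1H2AA, HIST1H2BA and the pseudogene HIST1H2APS1, and had medians of -0.62 and -0.61. Of these only HIST1H2AA was bright on all arrays, and it differed by -0.62 and -0.81. The other groups, with 32, 5 and 16 genes, had medians of -1.16, -1.25 and -1.17 in HN4/DDP and of -2.66, -3.25 and -3.04 in HN30/DDP. All 16 genes of the last group (chr6:27775286-27861647) passed -2 in HN30/DDP, against 3.25% of all genes.

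**Figure D3:**
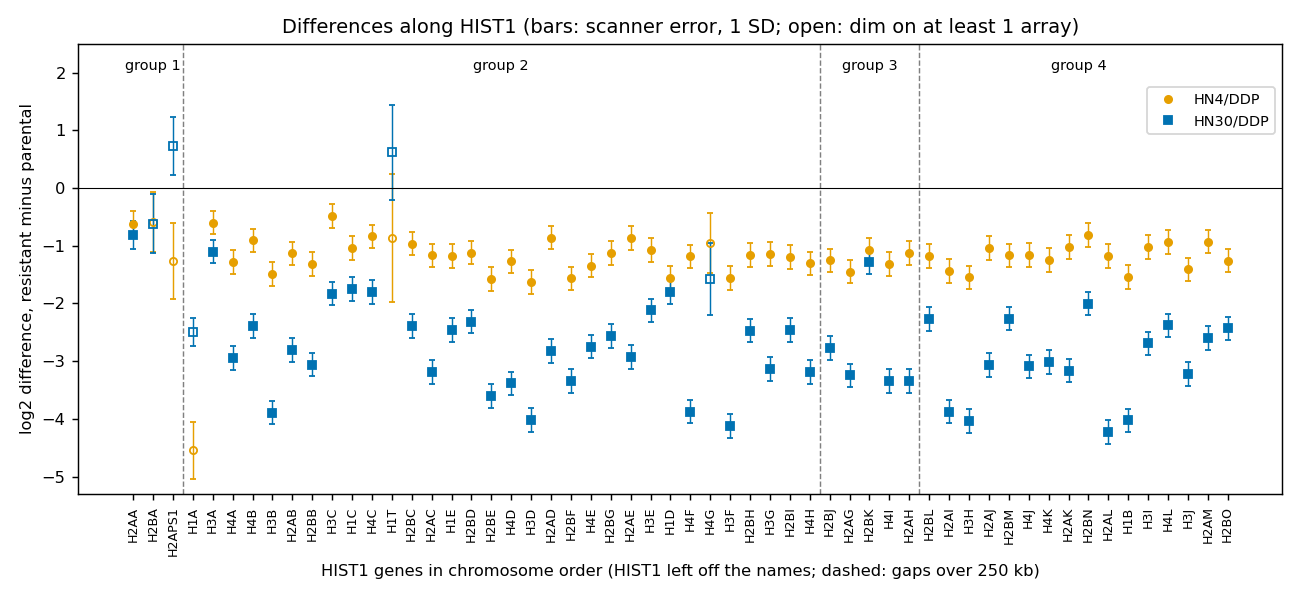
Log2 difference (y axis) of the 56 HIST1 genes in chromosome order (x axis) for HN4/DDP (circles) and HN30/DDP (squares), with scanner error bars (1 SD) and open symbols where a gene was dim on at least 1 array. Between the genes of group 1 and those of group 4 the HN4/DDP values move from a median of -0.62 to -1.17 and the HN30/DDP values from -0.61 to -3.04.

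Histone genes that stand head to head often share a promoter region. In RefSeq (GRCh38.p14), 12 pairs of members had start sites on opposite strands and at most 500 bases apart, at 194 to 248 bases. Of these, 11 joined an H2A and an H2B gene. HIST1H2BF stands in a pair with HIST1H2AD and in another with HIST1H3D, both at 223 bases. RefSeq gives these partners the same start base, so this promoter region is counted more than once. In the 11 pairs bright on all arrays, both genes had differences below 0 in both lines, although that of HIST3H2A in HN30/DDP lay within the scanner error. Of all 62 members bright on all arrays, 61 lay below 0 in HN4/DDP and 62 in HN30/DDP, so that nearly any pair would do so. The 2 genes of a pair lay a median of 0.26 apart in HN4/DDP and 0.80 in HN30/DDP. Gaps between members outside such pairs were not computed. The widest gap in HN30/DDP was 2.36 and separated HIST3H2A (-0.03) from HIST3H2BB (-2.40).

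The histone types also differ in the letters of their promoters. Of the 69 genes, 61 matched a RefSeq promoter by accession, and 4 motifs were searched on both strands of the 250 bases before the start site. CCAAT, the box bound by NF-Y, was in all 49 H1, H2A, H2B and H3 windows and in 3 of 12 H4 windows, and 33.0% of all 27305 promoters held it. TATAAA was in 41 of the 61 windows (67.2%), against 11.1% of all promoters. The octamer ATTTGCAT, bound by OCT1 (POU2F1), was in 11 of 15 H2A, 13 of 17 H2B and 1 of 11 H3 windows, and in 0 of the 18 H1 and H4 windows, against 1.66% of all. The 1 H3 window with it was that of HIST1H3D, whose start RefSeq puts at the same base as that of HIST1H2AD. The H1 box AAACACA was in all 6 H1 windows and in 0 of 55 others, against 4.95% of all. One window of each type is shown, the 130 bases before the start site, with the motifs in capitals (overlapping ones run together).
HIST1H1B (chr6:27867589-27867718, minus strand): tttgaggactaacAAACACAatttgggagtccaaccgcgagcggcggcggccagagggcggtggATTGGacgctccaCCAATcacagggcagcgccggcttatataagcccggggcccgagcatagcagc
HIST1H2AL (chr6:27865187-27865316, plus strand): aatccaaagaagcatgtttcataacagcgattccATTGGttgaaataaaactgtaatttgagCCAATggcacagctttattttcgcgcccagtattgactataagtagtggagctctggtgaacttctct
HIST1H2BF (chr6:26199386-26199515, plus strand): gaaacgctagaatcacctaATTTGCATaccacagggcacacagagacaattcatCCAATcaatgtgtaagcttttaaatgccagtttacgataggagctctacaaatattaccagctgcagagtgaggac
HIST1H3F (chr6:26250636-26250765, minus strand): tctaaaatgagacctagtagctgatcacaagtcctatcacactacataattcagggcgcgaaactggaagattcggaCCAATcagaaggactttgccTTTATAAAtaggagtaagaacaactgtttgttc
HIST1H4D (chr6:26189113-26189242, minus strand): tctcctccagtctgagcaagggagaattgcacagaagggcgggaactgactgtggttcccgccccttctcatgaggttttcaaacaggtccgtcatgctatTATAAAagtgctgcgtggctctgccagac
Genes with and without the octamer had medians of -1.16 and -1.13 in HN4/DDP and of -2.75 and -2.51 in HN30/DDP. Without the H1 genes the latter order turned, to -2.75 with and -2.88 without. None of the H4 windows, with a median of -3.14, held the octamer. Within H2A (-2.83 with and -2.53 without), H2B (-2.46 and -2.29) and H3 (-4.02, 1 window, and -2.83) the order did not turn. For CCAAT the HN30/DDP medians were -2.54 with and -3.09 without, and for TATAAA -2.57 and -2.98. The CCAAT order turned within H4, the only type with both kinds of window, to -3.34 with and -3.09 without. Over H1, H2A, H2B and H3 pooled, the TATAAA order turned to -2.54 with and -2.47 without. It also turned within H1, to -2.46 and -1.75. Within H2A (-2.80 with and -3.0 without), H2B (-2.35 and -2.46), H3 (-2.98 and -3.13) and H4 (-3.01 and -3.34) it did not turn. All 9 windows without CCAAT were those of H4 genes, and none of these splits was tested. The 6 genes with the H1 box are the H1 genes described above.

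For 5 genes the array holds a further probe over 900 bases from the one near the transcript start, and these were looked at after the values had been seen. HIST1H2AC, an H2A gene that also gives a long polyadenylated message, had a proximal signal of 2.22 in HN4 and 1.06 in HN4/DDP, against 3.10 in HN30 and -0.09 in HN30/DDP. The distal probe, 14361 bases downstream, read 0.02, -0.47, -0.67 and -1.54. The difference in HN30/DDP was thus -3.19 ± 0.20 at the proximal and -0.87 ± 0.21 (scanner error, 1 SD) at the distal probe, and in HN4/DDP -1.16 ± 0.20 and -0.49 ± 0.20. Another probe near its start read -2.61 ± 0.22 in HN30/DDP but -0.57 ± 0.21 in HN4/DDP, as small there as the distal one. HIST1H2BK, whose distal probe lies 8246 bases away and represents the gene in the counts above, differed in HN30/DDP by -2.53 ± 0.20 near the start and by -1.28 ± 0.20 at the distal probe. In HN4/DDP its probes read -1.17 ± 0.20 and -1.07 ± 0.20. The distal probes of HIST1H2AG and HIST1H4H were dim in HN30/DDP and at least 2.23-fold and 4.87-fold lower there, beside proximal differences of -3.25 and -3.19. In HN4/DDP the distal probe of HIST1H2AG differed by -1.96 ± 0.31, further below 0 than the proximal one at -1.45 ± 0.20, and that of HIST1H4H by -0.89 ± 0.23 beside -1.30 ± 0.20. That of HIST2H2BE was dim on all arrays.

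**Figure D4:**
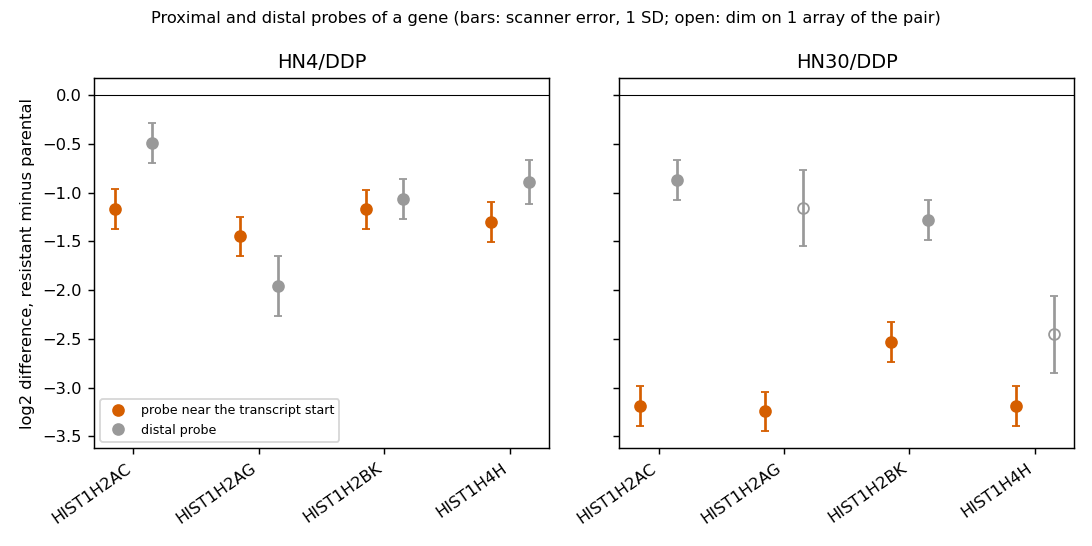
Log2 difference (y axis) at the proximal (orange) and the distal probe (grey) of 4 genes in HN4/DDP (left) and HN30/DDP (right), with scanner error bars (1 SD) and open symbols where 1 array of the pair was dim. In HN30/DDP the distal probes of HIST1H2AC and HIST1H2BK sit at -0.87 and -1.28, above the proximal ones at -3.19 and -2.53.

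Of the 15 genes with several probes, 12 had 2 or more probes bright on both arrays in HN4/DDP and 10 in HN30/DDP. Within these genes all bright probes were lower in the resistant line, 25 of 25 and 21 of 21. The 9 members known to give polyadenylated messages had medians of -1.12 and -2.39, and the other 60 had -1.15 and -2.72. The 41 members with a chosen probe annotated to 1 gene and unlike any other member's chosen probe had medians of -1.13 and -2.46. The other 28 had -1.13 and -3.04. Only probes were compared, not whole messages. The probe of HIST1H4J, among the 41, shared 40 of 41 bases with a second probe of HIST1H4K. These splits share all arrays and were not tested.

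The order of the lines turned between the parental and the resistant arrays. Parental HN30 was above parental HN4 for 63 of the 69 genes (26344 of all genes), by a median of 0.76, where the median of all genes was 0.10. HN30/DDP was below HN4/DDP for 62 of the 69 (15881 of all genes), with a median difference of -0.78, where that of all genes was 0.07. HIST1H2AL, for example, differed by 0.93 between the parental lines and by -2.12 between the resistant ones.

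Other genes of the histone supply had smaller median differences than the clustered genes. The replacement histones, most of which are made throughout the cell cycle from polyadenylated messages, had medians of -0.47 and -0.83 over 11 genes. Of these, 3 passed -1 in HN4/DDP, where 9.36% of all genes did, and 4 in HN30/DDP, where 15.7% did. H2AFX, the variant phosphorylated at DNA breaks, is also known to give a stem-loop message. It went from 5.63 to 4.03 in HN4/DDP and from 5.63 to 2.96 in HN30/DDP. H2AFZ (H2A.Z) differed by -0.34 and -1.61, H2AFV (H2A.Z.2) by -1.25 and -0.91, and CENPA, the centromeric H3, by -0.58 and -1.72.

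The 23 factors of histone message synthesis, processing and decay had medians of -0.04 and -0.93. Past -1 were 0 and 10 of these genes, against 9.36% and 15.7% of all genes. Of the cyclin E genes, CCNE2 differed by -0.66 and -2.92, while CCNE1 was higher in HN4/DDP by 0.95, the highest value of the 23, and differed by -0.81 in HN30/DDP. CSTF2, a cleavage factor, differed by -0.16 and -2.69, and NCBP1 of the cap-binding complex by -0.20 and -1.94. ZNF473, a zinc finger protein of the U7 processing complex, stood at -2.36 in HN4 and -1.64 in HN4/DDP, against -0.90 in HN30 and -2.55 in HN30/DDP, which gave differences of 0.72 and -1.65. SLBP, which binds the stem-loop, differed by -0.08 and -0.93, and NPAT by -0.36 and -1.17.

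The 21 histone chaperones had medians of -0.32 and -1.30. Of them, 2 and 14 passed -1, where 9.36% and 15.7% of all genes did. NASP, which stores H3 and H4, went from 1.19 to 0.61 in HN4/DDP and from 1.51 to -1.28 in HN30/DDP. The importin IPO4 differed by -0.57 and -2.52, ANP32E, a chaperone of H2A.Z, by -1.03 and -2.23, and CHAF1B of the assembly factor CAF-1 by -0.03 and -1.76. The 20 S phase genes of DNA replication had differences below 0 in both lines, although those of RRM1 (-0.01) and RRM2 (-0.16) in HN4/DDP lay within the scanner error of 0.20. They had medians of -0.56 and -2.32, and 3 and 19 of them passed -1, as did 9.36% and 15.7% of all genes. RRM2, a subunit of ribonucleotide reductase, went from 2.91 to 2.74 in HN4/DDP and from 3.33 to -0.41 in HN30/DDP. GINS2 and CDC45 of the replicative helicase differed by -0.61 and -0.86 in HN4/DDP and by -3.31 and -3.02 in HN30/DDP, and the factor E2F1 by -0.71 and -2.95.

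**Figure D5:**
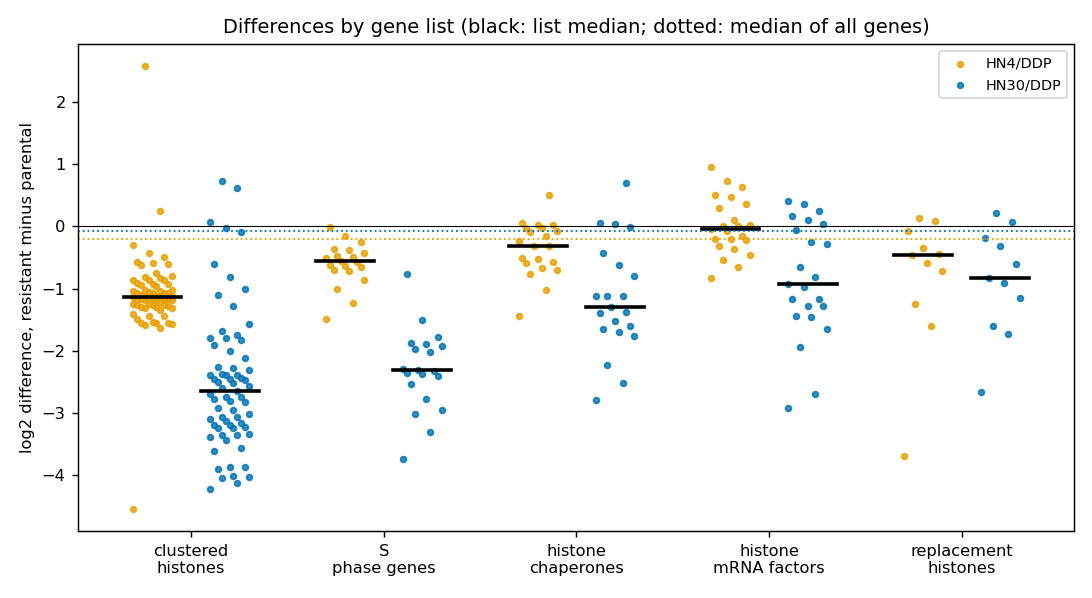
Log2 differences (y axis) of the 69 clustered histone genes and of the genes of 4 further lists (x axis) in HN4/DDP (orange) and HN30/DDP (blue), with list medians in black and the medians of all genes dotted. In HN30/DDP the medians run from -2.64 for the clustered histones and -2.32 for the S phase genes to -0.83 for the replacement histones.

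The one comparison with any replication sets both resistant arrays against both parental ones with the cell line as a block. It was fitted with limma to the 29521 genes that were bright (well above background) on 1 or more arrays and leaves 1 residual degree of freedom. No gene passed an adjusted p under 0.05 (0% of all genes), and no member did. At an unadjusted p under 0.05, 57 of the 67 members tested and 2537 genes in all (8.59%) passed. The smallest adjusted p among the members was 0.433, for HIST1H1A, whose estimate rests on an HN4/DDP signal not well above background. Among members bright on all arrays it was 0.471, for HIST1H1D, with a log2 difference of -1.68 ± 0.37 (standard error), and for HIST1H4C. The estimate was below 0 for 66 of the 67.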

How the data were processed

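Total RNA of 4 samples was extracted with a mirVana kit, amplified and labelled with Cy3 from 0.2 μg, and hybridised to Agilent SurePrint G3 Human Gene Expression v3 arrays. The authors deposited the scanner intensity of every spot, made with Agilent Feature Extraction 10.7.1.1 per the submitters' processing notes, with probe positions on hg19. The processed intensity is background-subtracted and detrended, which makes low signals the least certain. A further table the authors deposited holds log2 values, with the same sorted values and a median of 4.65 on each array, as quantile normalization leaves them. The steps before that are unknown. Its differences correlated with those given here with r = 0.996 in HN4/DDP and 0.956 in HN30/DDP across 43305 genes.

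Here, each array was scaled to the 75th percentile of the processed intensity over its 60901 non-control spots, and log2 was taken. Outlier spots were left out, spots of a probe averaged, and the probe with the highest mean kept per gene. A bound ("at least") sets a dim signal at the lowest signal well above background on its array. The scanner error is that reported by Feature Extraction. With 1 array per condition, precision is limited to that of single arrays. Resistant and parental arrays were compared with limma 3.58.1 (R 4.3.3; cell line as a block, eBayes with a trend, Benjamini-Hochberg adjustment), after a check on simulated data. Tables were handled in Python 3.11.15 with pandas 2.3.3 and numpy 2.4.6. Sequences came from the deposited probes and from RefSeq promoters.

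Members and gene lists were chosen with earlier results of these data known. Genes named with values were the 6 largest differences in each direction per line among bright members, members past 2 in both lines or past 1 in opposite directions, all members of HIST2 to HIST4, and up to 4 genes per further list. Other genes are named where a sentence singles them out, SLBP, NPAT and CCNE1 for their roles. Nothing was found for H3F3B, so 11 of the 12 listed replacement histones were used. Alternatives covered background correction, scaling, the deposited table, probe choice, low values, the dim filter and the threshold.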

Additional observations from a re-analysis of the deposited data

Results flagged for a closer look

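Among the members and the genes of the further lists, those below were well above background on all 4 arrays and differed in opposite directions in the lines, by more than 1 SD of the scanner error in each. HIST2H2AA4, an H2A gene of HIST2 and the only member among them, had log2 differences of 0.24 in HN4/DDP, against a scanner error of 0.20, and of -1.90 in HN30/DDP. With normexp its HN4/DDP difference was 0.195, still above 0 but below that error, so that it would not then have been listed here. Of the histone message factors, ZNF473 had differences of 0.72 and -1.65, CCNE1 of 0.95 and -0.81, LSM10 of 0.50 and -0.98, and LSM1 of 0.48 and -1.28. The chaperone NAP1L4 had 0.51 and -1.37. UPF1, which acts in message decay, ran the other way, with -0.22 and 0.25, both close to the scanner error of 0.20. With 1 array per condition, the contrast between the lines was not tested for any of these genes.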

How the results depend on the processing

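The limma fit pairs each resistant array with its own parent through the cell line block. By replicate number no paired analysis was possible because each of the 4 conditions holds only number 1. For the same reason leaving out a replicate could not be run. The members' median stayed below 0 in both lines under every alternative, from -1.15 to -1.04 in HN4/DDP and from -3.06 to -2.36 in HN30/DDP. In HN30/DDP it was -3.06 with median scaling, -2.36 with quantile normalization and -2.42 in the deposited table. Median scaling also moved the median of all genes in HN30/DDP from -0.07 to -0.49. Relative to all genes, the members stood at -1.06 to -0.90 in HN4/DDP and -2.58 to -2.33 in HN30/DDP over the scaling, background, probe and low-value settings. Over these settings parental HN30 was above HN4 for 62 to 65 members and HN30/DDP below HN4/DDP for 61 to 64. The 1 member higher in HN4/DDP became 0 with normexp, the mean over probes, the pseudocount of 16, dim signals at the lowest bright signal, and members bright on both arrays. The 1 member lower in both lines became 0 with normexp and, like the 1 lower in HN4/DDP, 0 among members bright on both arrays. Past 1 in place of 2, 48 members were lower in HN4/DDP and 47 in both lines. Among the 41 members with a probe annotated to 1 gene and unlike the other chosen probes, 26 were lower by over 2 in HN30/DDP. Of the other 28 members, 26 were. This alternative was chosen after seeing the data, and the contrast was not tested. HIST2H2BA in HN30/DDP, dim on both arrays, turned from 0.07 to -0.061 with normexp, -0.35 with median scaling, -0.071 with the pseudocount and -0.32 with dim signals at the lowest bright signal. Of 322 recomputed differences of named members, 243 moved by less than the scanner error, 75 moved by more and these 4 changed sign. No member passed limma's adjusted threshold under any of the 5 alternatives, while 51 to 60 passed an unadjusted p under 0.05. Single arrays and scanner error leave the spread between cultures unknown.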
